A study of Mus musculus with 4 samples.

Results

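The Schlafen genes of the mouse are a family of related proteins, and 4 of them, Slfn1, Slfn2, Slfn5 and Slfn8, were followed here by their symbols in the deposited table of 17039 genes. All 4 were among the 12887 genes tested. They were chosen by their measured fold changes between the groups compared here, because some family members lay below their control level while many interferon genes lay above it, so their differences are given as a description, with no test. The libraries came from T cells of the spleen, which the title of the study calls CD8+, of C57BL/6 mice kept free of specific pathogens. In 1 group (AAV-IL-27) the mice had received a recombinant adeno-associated virus that expresses interleukin-27 (IL-27), and in the other (AAV-ctrl) a control virus of the same kind. The virus went into muscle and the spleen was taken after about a month, when T cells were separated with magnetic beads. Each group had 2 libraries, numbered 1 and 3, from separate mice. The age of the mice and the promoter of the virus are not given in the sources used here.

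Schlafen genes take their name from the German word for sleeping, because the first of them were described as brakes on the growth of developing T cells. Slfn1 and Slfn2 are short proteins of lymphocytes, and Slfn3 and Slfn4 are of intermediate length. Mice with a defective Slfn2 have T cells that do not hold the resting state and die when activated, and Slfn2 protects transfer RNAs from cleavage in activated T cells. Slfn5, Slfn8 and Slfn9 are long proteins that carry a helicase-like part behind the shared Schlafen core. Several family members are induced by type I interferons in immune cells.

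Total expected counts ran from 15742523 to 16182453 per library, and the 4 genes together held 0.0581% to 0.0644% of them. Levels are given as FPKM, counts per length of gene and size of library, which allow levels to be compared between genes. Fold changes are on the log2 scale from edgeR's fit of the counts, with the standard error (SE) of the fit, and values above 0 stand for more transcript in AAV-IL-27. Of 13 T cell markers analysed here, none was at 0 in all libraries, and their summed level was 3561 and 3169 FPKM in AAV-IL-27 and 3107 and 3149 FPKM in AAV-ctrl. Calls are at an edgeR adjusted p under 0.05, by which 21.3% of all tested genes rose and 17.7% fell. Of the 13, 7 rose (53.8%), 1 fell (7.7%) and 5 did not pass. Markers of other cells were present as well. The sum of 15 neutrophil markers was 1048 and 1719 FPKM in AAV-IL-27 against 42.2 and 32.0 FPKM in AAV-ctrl, and the sum of 9 B cell markers was 827 and 1145 against 1860 and 1627 FPKM. Of 12 natural killer cell markers 9 fell (75%) and 3 rose (25%, near the 21.3% of all tested genes), with a median log2 fold change of -2.15. Their sum went the other way, at 812 and 750 FPKM in AAV-IL-27 against 451 and 439 FPKM in AAV-ctrl. Most of that sum was Nkg7 in every library, so it does not speak for the markers that fell. Klra8, a receptor of these cells, was at 1.22 and 1.53 FPKM in AAV-IL-27 against 16.4 and 16.7 FPKM in AAV-ctrl. The 3 that rose were Nkg7 (616 and 583 FPKM against 258 and 257 FPKM), Gzma and Eomes. The Eomes call ended when the libraries were scaled to the T cell markers (log2 fold change 0.09, edgeR adjusted p = 0.346). The part of natural killer cells in the Schlafen values was not tested. In such bulk samples, fewer cells of a type and less RNA per cell cannot be told apart.

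The Schlafen genes lie side by side on chromosome 11 of the mouse genome build GRCm38.p6, and 9 of the 10 family genes with a row in the table are in this cluster. In order along the chromosome they are Slfn5 (NCBI Gene 327978, chr11:82951349-82964850), Slfn9, Slfn8 (NCBI Gene 276950, chr11:83002125-83020810), the pseudogene Slfn10-ps, Slfn2 (NCBI Gene 20556, chr11:83065112-83070678), Slfn1 (NCBI Gene 20555, chr11:83116820-83122670), Slfn4, Slfn3 and Slfn14. The long genes Slfn5, Slfn9 and Slfn8 stand at one end and the short ones Slfn2 and Slfn1 follow after Slfn10-ps, while Slfn14, also a long gene, is at the opposite end. Slfn8, Slfn9, Slfn10-ps and Slfn14 are on the minus strand, and Slfn5, Slfn2, Slfn1, Slfn4 and Slfn3 are on the plus strand.

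The promoters of the 4 genes are shown because an exact match to a sequence element of interferon responses was found for Slfn5 and Slfn8 only. The interferon-stimulated response element (ISRE) is bound by interferon regulatory factors, and its core was searched on both strands as GAAA, any 2 bases and GAAA again. The sequences are the 250 bases before a transcript start in the RefSeq promoter table, 5′ to 3′ on the strand of the gene, with the ISRE core in capitals. For Slfn5 that start lies inside the span of the gene given above, so its window follows the first annotated base of the gene, and the sequence before that base was not searched. They cover chr11:82951852-82952101 on the plus strand for Slfn5, chr11:83020811-83021060 on the minus strand for Slfn8, chr11:83064862-83065111 on the plus strand for Slfn2 and chr11:83116570-83116819 on the plus strand for Slfn1. The window of Slfn9 (chr11:82991831-82992080, minus strand) is shown because it is close to that of Slfn8.
Slfn5: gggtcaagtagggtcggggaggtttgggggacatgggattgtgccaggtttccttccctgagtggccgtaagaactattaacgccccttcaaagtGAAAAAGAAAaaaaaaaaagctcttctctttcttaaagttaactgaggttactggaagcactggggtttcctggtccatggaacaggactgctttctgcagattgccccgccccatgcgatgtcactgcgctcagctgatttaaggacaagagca
Slfn8: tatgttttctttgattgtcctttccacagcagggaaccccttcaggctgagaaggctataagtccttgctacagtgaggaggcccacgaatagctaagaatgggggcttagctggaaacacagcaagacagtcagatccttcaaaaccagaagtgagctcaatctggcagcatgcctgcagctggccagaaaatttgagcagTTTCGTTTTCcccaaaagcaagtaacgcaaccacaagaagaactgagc
Slfn9: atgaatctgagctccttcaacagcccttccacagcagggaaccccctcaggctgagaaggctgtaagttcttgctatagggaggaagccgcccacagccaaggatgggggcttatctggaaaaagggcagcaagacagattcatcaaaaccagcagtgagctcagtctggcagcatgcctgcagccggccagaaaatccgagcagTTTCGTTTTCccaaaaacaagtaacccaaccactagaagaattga
Slfn2: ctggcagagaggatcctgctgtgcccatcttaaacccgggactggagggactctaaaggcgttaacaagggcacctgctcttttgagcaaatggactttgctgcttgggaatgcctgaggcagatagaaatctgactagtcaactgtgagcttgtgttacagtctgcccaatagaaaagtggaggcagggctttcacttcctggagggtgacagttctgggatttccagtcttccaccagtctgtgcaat
Slfn1: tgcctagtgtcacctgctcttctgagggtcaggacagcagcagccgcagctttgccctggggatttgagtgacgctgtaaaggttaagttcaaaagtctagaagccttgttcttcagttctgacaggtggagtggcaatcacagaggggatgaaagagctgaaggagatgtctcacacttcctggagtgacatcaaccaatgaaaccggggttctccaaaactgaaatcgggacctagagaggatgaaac

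Slfn5 had the core as GAAAAAGAAA on the strand of the gene (chr11:82951947-82951956). Slfn8 had it as TTTCGTTTTC, the opposite strand's match (chr11:83020849-83020858), and so did Slfn9 (chr11:82991866-82991875). Aligned with each other, the windows of Slfn8 and Slfn9 had the same base at 206 of 242 aligned positions (85.1%). No match was found in the windows of Slfn2, Slfn1, Slfn3, Slfn4 and Slfn14, and no window was given for Slfn10-ps. The core occurred in 3.4% of the 32851 promoter windows of RefSeq, which run 50 bases past the start. The GAS core, an element of interferon-gamma responses (TTCNNNGAA, searched on both strands, 8.3% of windows) and the FOXO motif (GTAAACA, on both strands, 3.6%) were found in none of the Schlafen windows. A match of letters does not show that a factor binds there, and a window without a match says nothing of sites elsewhere. Only exact matches were counted, so a window without one can still hold a near match.

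The short members Slfn1 and Slfn2 stood higher in the AAV-IL-27 libraries and the long members Slfn5 and Slfn8 lower. For none of the 4 did the groups overlap, which was also true of 71.5% of all tested genes, 35.7% with the higher and 35.8% with the lower values in AAV-IL-27. The order of the levels, Slfn2 above Slfn1, above Slfn8 and above Slfn5, was the same in all 4 libraries, and no pair of neighbours in that order overlapped within a group.

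**Figure D1:**
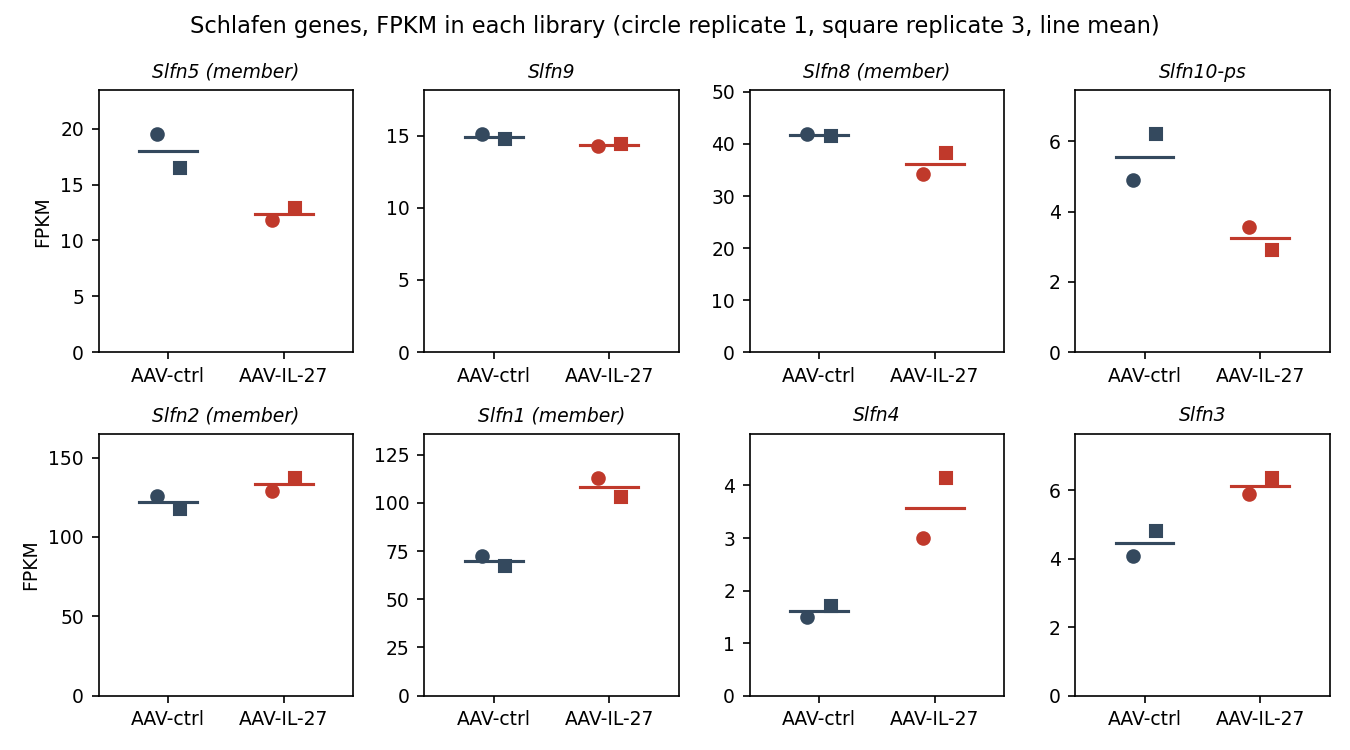
FPKM of the 8 tested Schlafen genes in each library, in their order along the chromosome, with the vertical axis of each panel starting at 0; circles are replicate 1, squares replicate 3 and lines group means. Slfn5, Slfn8 and Slfn10-ps lie lower in AAV-IL-27, Slfn2, Slfn1, Slfn4 and Slfn3 lie higher, and the groups of Slfn9 are close, at 14.3 to 15.1 FPKM.

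Slfn1, which slows the growth of thymocytes when it is forced on, was at 113 and 103 FPKM in AAV-IL-27 replicates 1 and 3 and at 72.4 and 67.1 FPKM in AAV-ctrl. The lowest AAV-IL-27 library stood clearly above the highest AAV-ctrl library. The group means were 108 ± 7.15 and 69.7 ± 3.73 FPKM (SD, n = 2), and the log2 fold change was 0.68 ± 0.062 (SE), a 1.61-fold difference. This was the largest difference among the 4 members. Slfn1 had 3377 and 3090 counts in AAV-IL-27 and 2119 and 1957 in AAV-ctrl. Slfn1 lay above 94.0% to 96.8% of the genes of its library in FPKM.

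Slfn2, the keeper of T cell quiescence, was at 129 and 137 FPKM in AAV-IL-27 and at 126 and 118 FPKM in AAV-ctrl. The nearest libraries of the 2 groups were closer to each other than either was to its own replicate. The means were 133 ± 6.08 and 122 ± 5.65 FPKM (SD, n = 2), and the log2 fold change was 0.18 ± 0.055 (SE) with TMM factors, but it turned to -0.05 when the libraries were scaled to the T cell markers, a choice made after seeing the data. That scaling moved the median of all tested genes to -0.24 from -0.00528. Slfn2 held the highest level of the family, above 97.2% to 97.4% of the genes of each library. Slfn1 reached 0.879 and 0.750 of the Slfn2 level in AAV-IL-27, and 0.575 and 0.569 of it in AAV-ctrl, a ratio that no scaling of the libraries changes. Slfn1 and Slfn2 together made up 76.9% and 75.3% of the summed family FPKM in AAV-IL-27 and 69.5% and 68.4% in AAV-ctrl.

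Slfn5, the long member known as a nuclear protein, was at 11.8 and 12.9 FPKM in AAV-IL-27 and at 19.5 and 16.5 FPKM in AAV-ctrl. Both AAV-IL-27 libraries were below both AAV-ctrl libraries, and the AAV-ctrl mice differed more from each other than the AAV-IL-27 mice. The means were 12.3 ± 0.75 and 17.99 ± 2.16 FPKM (SD, n = 2), and the log2 fold change was -0.48 ± 0.094 (SE), 0.71 of the control level. Without AAV-ctrl replicate 1 it was -0.35, and without AAV-ctrl replicate 3 it was -0.61. The sum of the B cell markers had the same order over the 4 libraries as Slfn5, lowest in AAV-IL-27 replicate 1 and highest in AAV-ctrl replicate 1. That order was not particular to B cells. The macrophage markers Csf1r and Adgre1 had it too, while C1qa did not. Of the 9 B cell markers 4 fell (44.4%, against 17.7% of all tested genes) and 5 did not pass, and none was at 0 in all libraries. The Cd79b call (edgeR adjusted p = 0.0498) ended with replicate number as a block (0.131) and scaled to the T cell markers (0.0792). With that block the Fcer2a call ended as well (edgeR adjusted p = 0.0699). The part of B cells and of other cells in the Slfn5 difference was not tested. The antisense gene Slfn5os overlaps Slfn5 and is not analysed here, and since strand-aware counting is not stated, reads of the pair cannot be told apart.

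Slfn8, a long member expressed in T cells, was at 34.2 and 38.3 FPKM in AAV-IL-27 and at 41.9 and 41.6 FPKM in AAV-ctrl. The AAV-ctrl libraries nearly coincided and AAV-IL-27 replicate 3 lay nearer to them than replicate 1 did. The means were 36.2 ± 2.86 and 41.7 ± 0.24 FPKM (SD, n = 2), and the log2 fold change was -0.16 ± 0.055 (SE), 0.89 of the control level. It was -0.10 without AAV-IL-27 replicate 1 and -0.23 without AAV-IL-27 replicate 3. Relative to Slfn8, Slfn5 was lower in AAV-IL-27, with 0.345 and 0.336 of the Slfn8 level in AAV-IL-27 against 0.466 and 0.396 in AAV-ctrl.

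The other Schlafen genes were tested with edgeR's quasi-likelihood test, which called 39.0% of all tested genes, 21.3% as risen and 17.7% as fallen. Of the 6, 4 were tested, of which 2 rose, 1 fell and 1 did not pass. Slfn4, of intermediate length and best known from monocytes and macrophages, was at 3.00 and 4.15 FPKM in AAV-IL-27 and at 1.5 and 1.71 FPKM in AAV-ctrl, and rose by 1.34 ± 0.23 on the log2 scale (SE, edgeR adjusted p = 0.00281). Its higher AAV-IL-27 library, replicate 3, was also the library with the highest sum of neutrophil markers. Of these markers 13 of 15 rose (86.7%, against 21.3% of all tested genes), and none was at 0 in all libraries. Of 15 monocyte and macrophage markers 2 rose (13.3%) and 6 fell (40%, against 17.7% of all tested genes). Their sums were 204 and 259 FPKM in AAV-IL-27 and 232 and 195 FPKM in AAV-ctrl. The part of other cells in the Slfn4 result was not tested.

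Slfn3, also of intermediate length, was at 5.9 and 6.37 FPKM in AAV-IL-27 and at 4.08 and 4.82 FPKM in AAV-ctrl, and rose by 0.51 ± 0.14 (SE, edgeR adjusted p = 0.0191). The call was lost without AAV-ctrl replicate 1 (adjusted p = 0.172), AAV-ctrl replicate 3 (0.0571) or AAV-IL-27 replicate 3 (0.0599), with DESeq2 (0.12) and scaled to the T cell markers (0.155). Slfn10-ps, the pseudogene between Slfn8 and Slfn2, was at 3.56 and 2.92 FPKM in AAV-IL-27 and at 4.91 and 6.21 FPKM in AAV-ctrl. It fell by 0.73 ± 0.15 on the log2 scale (SE, edgeR adjusted p = 0.0048). Leaving out AAV-ctrl replicate 3 ended this call (adjusted p = 0.0663). Slfn9, the long gene whose promoter window is close to that of Slfn8, was at 14.3 and 14.4 FPKM in AAV-IL-27 and at 15.1 and 14.7 FPKM in AAV-ctrl. Its log2 fold change was -0.01 ± 0.052 (SE, edgeR adjusted p = 0.923), but -0.24 and past the threshold when scaled to the T cell markers (adjusted p = 0.0191). Slfn5 ranked above Slfn9 in both AAV-ctrl libraries and below it in both AAV-IL-27 libraries. Slfn14, a gene of platelets and red cell precursors, had 1 count in each AAV-IL-27 library and 0 in AAV-ctrl, and the Schlafen-like gene Slfnl1 had 2 counts in AAV-ctrl replicate 3 and 0 elsewhere, too few for a test.

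**Figure D2:**
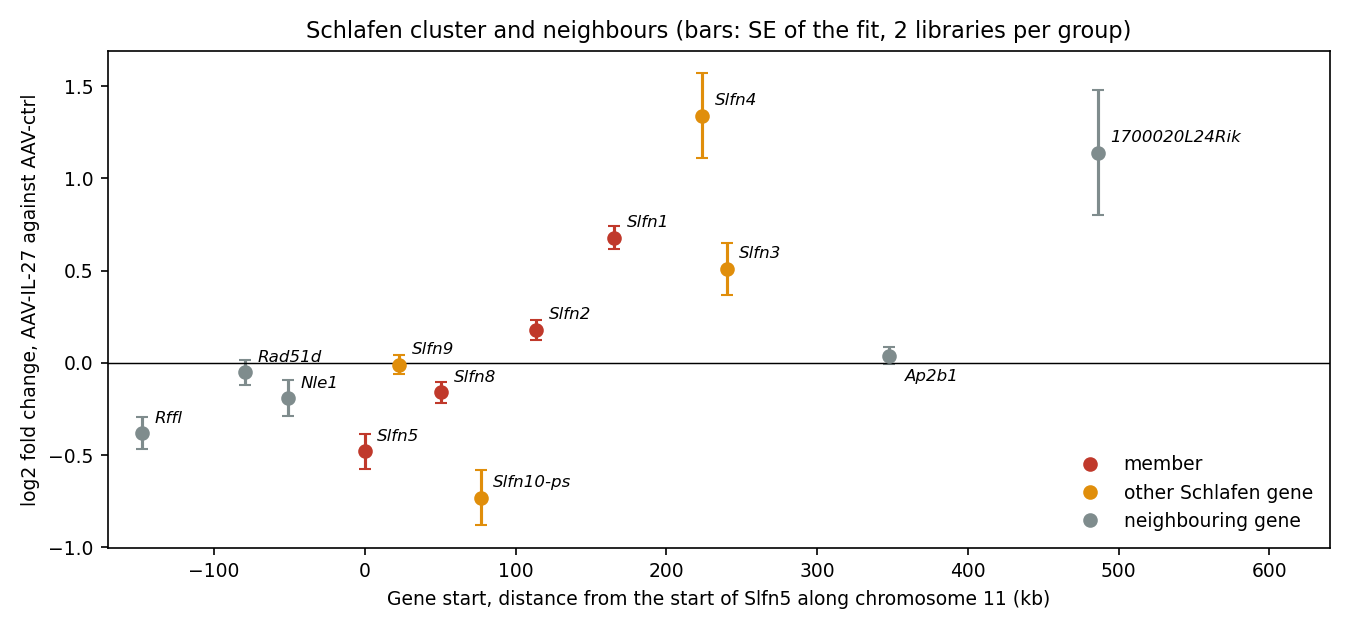
Log2 fold change with its SE for the tested Schlafen genes and 5 tested neighbours, against the distance of the gene start from that of Slfn5 in kb. Slfn5, Slfn8 and Slfn10-ps lie below 0 and Slfn9 at -0.01, while Slfn2, Slfn1, Slfn4 and Slfn3 further along lie above it with TMM factors (Slfn2 at -0.05 when scaled to the T cell markers).

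From Slfn5 to Slfn10-ps the 4 log2 fold changes were -0.48, -0.01, -0.16 and -0.73, and from Slfn2 to Slfn3 they were 0.18, 0.68, 1.34 and 0.51. Slfn9 had no direction that passed the test, Slfn2 turned to -0.05 when scaled to the T cell markers, and the members were chosen for their directions, so this order along the cluster is a description only. Among the tested genes the same split separates the long genes and Slfn10-ps from the short and intermediate ones, so position and protein type cannot be told apart here. CPM are counts scaled to a common library size, here with TMM factors. As CPM, Slfn1, Slfn2, Slfn3 and Slfn4 summed to 452 and 454 in AAV-IL-27 against 349 and 328 in AAV-ctrl. Slfn5, Slfn8, Slfn9 and Slfn10-ps summed to 307 and 325 against 380 and 363. Of the 10 nearest genes with a row in the table, 5 on each side of the cluster, 6 were tested. Rffl, a ubiquitin ligase gene on the Slfn5 side, fell by 0.38 ± 0.088 on the log2 scale (SE, edgeR adjusted p = 0.00803). On the far side 1700020L24Rik, a gene with 13 to 42 counts per library, rose by 1.14 ± 0.34 (adjusted p = 0.0264). Neither call held with DESeq2 (adjusted p = 0.0639 and 0.136). By edgeR the Rffl call also ended without AAV-ctrl replicate 1 (adjusted p = 0.0943), and that of 1700020L24Rik without AAV-IL-27 replicate 1 (0.0798), AAV-IL-27 replicate 3 (0.0661) or AAV-ctrl replicate 3 (0.213). Ap2b1, a clathrin adaptor subunit with a level like that of Slfn8, stood at 0.04 ± 0.048 (adjusted p = 0.538), and Rad51d and Nle1 did not pass (adjusted p = 0.578 and 0.151). Nle1 fell without AAV-IL-27 replicate 1 (adjusted p = 0.0413). Nle1, Rad51d and Ap2b1 fell when scaled to the T cell markers (adjusted p = 0.00191, 0.00951 and 0.0495).

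Near-identical stretches let reads of 1 Schlafen gene be counted for another. Among the 4 members Slfn8 had the most such sequence, and in the cluster Slfn10-ps had more (19.7% of its 50-base stretches). Of the distinct 50-base stretches in the GENCODE transcripts of Slfn8, 14.6% also occurred in another Schlafen gene, 9.3% in Slfn9 and 10.1% in Slfn10-ps. For Slfn2 the share was 4.3%, all of it with Slfn4, and for Slfn1 it was 0.6%. Slfn5 shared no 50-base stretch with the family, though 3.4% of its stretches occurred in genes outside it. With 100-base stretches the shares within the family were 3.4% for Slfn8, 0.1% for Slfn2 and 0.0% for Slfn1 and Slfn5. Summed with Slfn9 and Slfn10-ps, Slfn8 had a log2 fold change of -0.14, which does not depend on how reads were split among the 3. Slfn2 summed with Slfn4 was at 0.22 and Slfn1 summed with Slfn3 and Slfn4 at 0.71, and these sums were chosen after seeing the data.

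**Figure D3:**
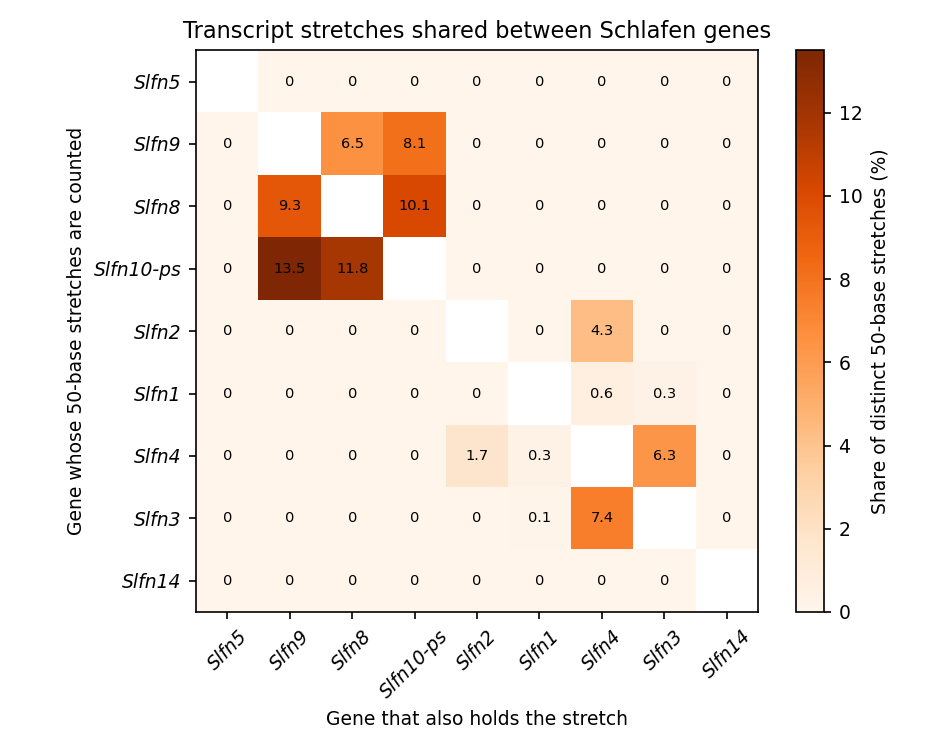
Share of the distinct 50-base stretches of each Schlafen gene's transcripts (rows, %) that also occur in another Schlafen gene (columns). Sharing lies within Slfn9, Slfn8 and Slfn10-ps (6.5% to 13.5%) and among Slfn1, Slfn2, Slfn3 and Slfn4 (up to 7.4%, between Slfn3 and Slfn4), and Slfn5 and Slfn14 share none.

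The interferon genes around which the family was chosen were mostly higher. Their rise was part of that choice, and the gene lists were made with earlier results of these data known. The counts for the antiviral, GTPase and signalling lists are therefore a description only. Of 44 antiviral interferon-stimulated genes analysed here, 24 rose (54.5%, against 21.3% of all tested genes) and 3 fell (6.8%, against 17.7%), with a median log2 fold change of 0.54 against -0.00528 over all tested genes. Zbp1, a sensor of Z-form nucleic acids, rose by 1.62 ± 0.049 (SE), Usp18, which removes ISG15 from proteins and damps interferon receptor signals, by 1.58 ± 0.088, and the partners Parp9 and Dtx3l by 0.87 ± 0.049 and 0.78 ± 0.05. The 3 that fell were Ifi208 (-0.34 ± 0.05), Samd9l (-0.28 ± 0.048) and Ddx60 (-0.38 ± 0.083), the last with an edgeR adjusted p = 0.0742 when AAV-ctrl replicate 1 was left out. Slfn5, at -0.48, lay below all 44, and Slfn8, at -0.16, lay above 3 and below 41 of them. Slfn2 lay above 14 of the 44 and Slfn1 above 32. The members were chosen for this contrast, so these ranks only describe it.

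All 17 interferon-inducible GTPases rose (100%, against 21.3% of all tested genes, median 1.53), among them Igtp by 2.59 ± 0.052 and Gbp2 by 2.37 ± 0.052 (SE). Of 18 genes of interferon signalling, 12 rose (66.7%, against 21.3% of all tested genes), 3 fell (16.7%, close to the 17.7% of all tested genes) and 3 did not pass (median 0.35). Irf1, a transcription factor that binds the ISRE, rose by 1.14 ± 0.051 (edgeR adjusted p = 5.04e-07), from 115 and 113 FPKM in AAV-ctrl to 251 and 235 FPKM. Jak1, a kinase of interferon and gp130 receptors, fell by 0.29 ± 0.052 on the log2 scale, and Ifngr2 and Irf3 fell by 0.78 ± 0.12 and 0.20 ± 0.055. The Jak1 call ended without AAV-ctrl replicate 3 (adjusted p = 0.057), and the Irf3 call with DESeq2 (0.141) and without AAV-IL-27 replicate 1 (0.0671), AAV-ctrl replicate 1 (0.154) or AAV-ctrl replicate 3 (0.0957).

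The ISRE core was common among the antiviral genes and did not go with a single direction. It was present in the windows of 19 of the 34 antiviral genes with a window (55.9%), of which 8 rose, 2 fell and the rest did not pass. Of all 44 antiviral genes, with or without a window or a core, 24 rose (54.5%). Of the 10278 tested genes with a window, 408 had the core, and 30.6% of these rose and 12% fell. Over all 12887 tested genes, with or without a window, the shares were 21.3% and 17.7%. Slfn5 and Slfn8, the members with a core, were the ones lower in AAV-IL-27, and Slfn9, which also has a core, stood at -0.01. Slfn1, Slfn2, Slfn3 and Slfn4 without an exact match were higher (Slfn2 only without scaling to the T cell markers). The members were chosen for their directions, so this is a description only. Among the tested Schlafen genes with a window, the core, position and protein type cannot be told apart.

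**Figure D4:**
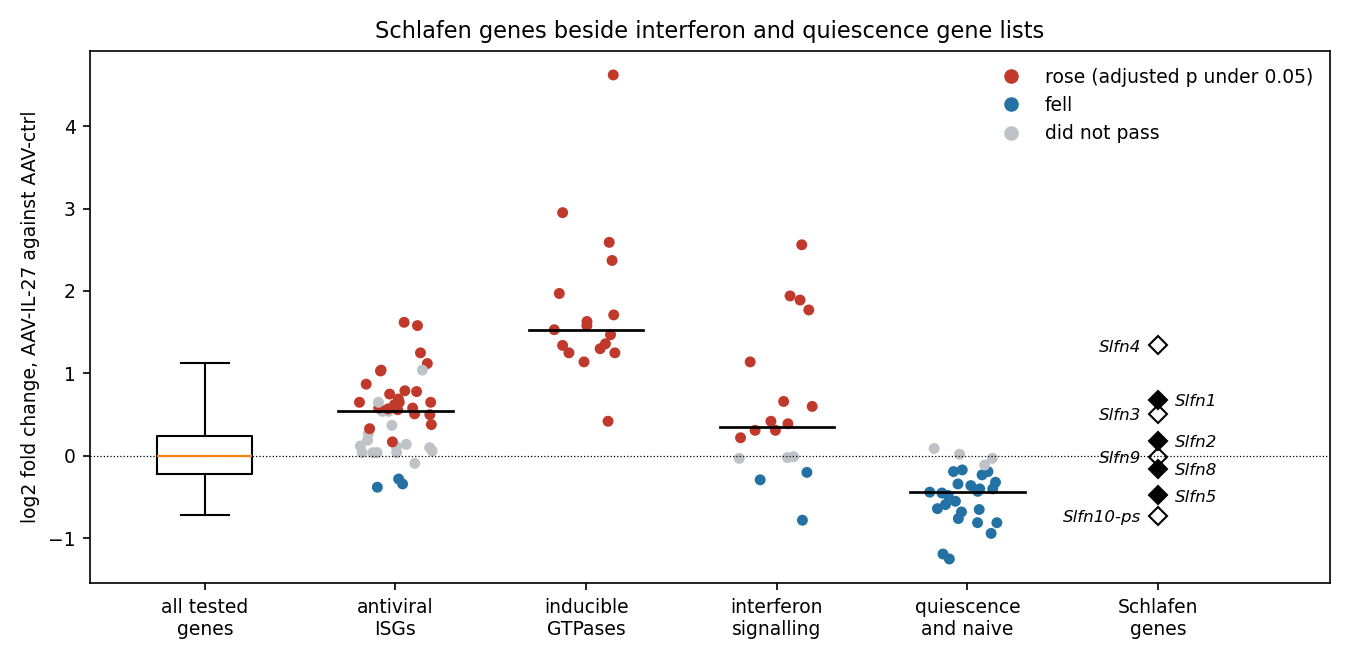
Log2 fold change of single genes in 4 gene lists (points, coloured by the edgeR call, black line the median), of all tested genes (box, quartiles and median, whiskers at the 5th and 95th percentile) and of the Schlafen genes (filled diamonds members, open diamonds other family genes). Medians are 0.54 for the antiviral genes and -0.43 for the quiescence genes, and the Schlafen genes spread from -0.73 to 1.34.

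Genes of resting and naive T cells, the state in which Slfn2 has its known part, were lower. Of 28 such genes 24 fell (85.7%, against 17.7% of all tested genes), none rose and 4 did not pass (median -0.43). None rose at an unadjusted p under 0.05 or with DESeq2 either (0 in each). By edgeR, Klf2, which holds T cells quiescent and keeps their homing receptors on, fell by 0.81 ± 0.046 on the log2 scale (SE), Lef1 by 1.19 ± 0.065, Il6ra by 0.81 ± 0.052 and Dapl1 by 0.94 ± 0.068. Of 20 cell cycle genes all rose (100%, against 21.3% of all tested genes, median 1.84). Slfn1 and Slfn2 stood higher in the same libraries with TMM factors (Slfn2 at -0.05 when scaled to the T cell markers).

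Other genes had nearly the same profile as each member over the 4 libraries. Likeness was the Euclidean distance between log2 profiles centred on their mean, among 10175 genes. Closest to Slfn1 were Lamb3, Ska3 and Tap2 (distances 0.037, 0.038 and 0.041), to Slfn2 Srsf9, Zfp706 and Sec22b (0.02, 0.022 and 0.026), to Slfn5 Shf, Maged1 and Acsl3 (0.021, 0.04 and 0.04) and to Slfn8 Safb2, Zbtb43 and Emc8 (0.009, 0.012 and 0.015). With 4 libraries many genes come close, and within a distance of 0.1 there were 38 genes for Slfn1, 360 for Slfn2, 26 for Slfn5 and 684 for Slfn8.

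**Figure D5:**
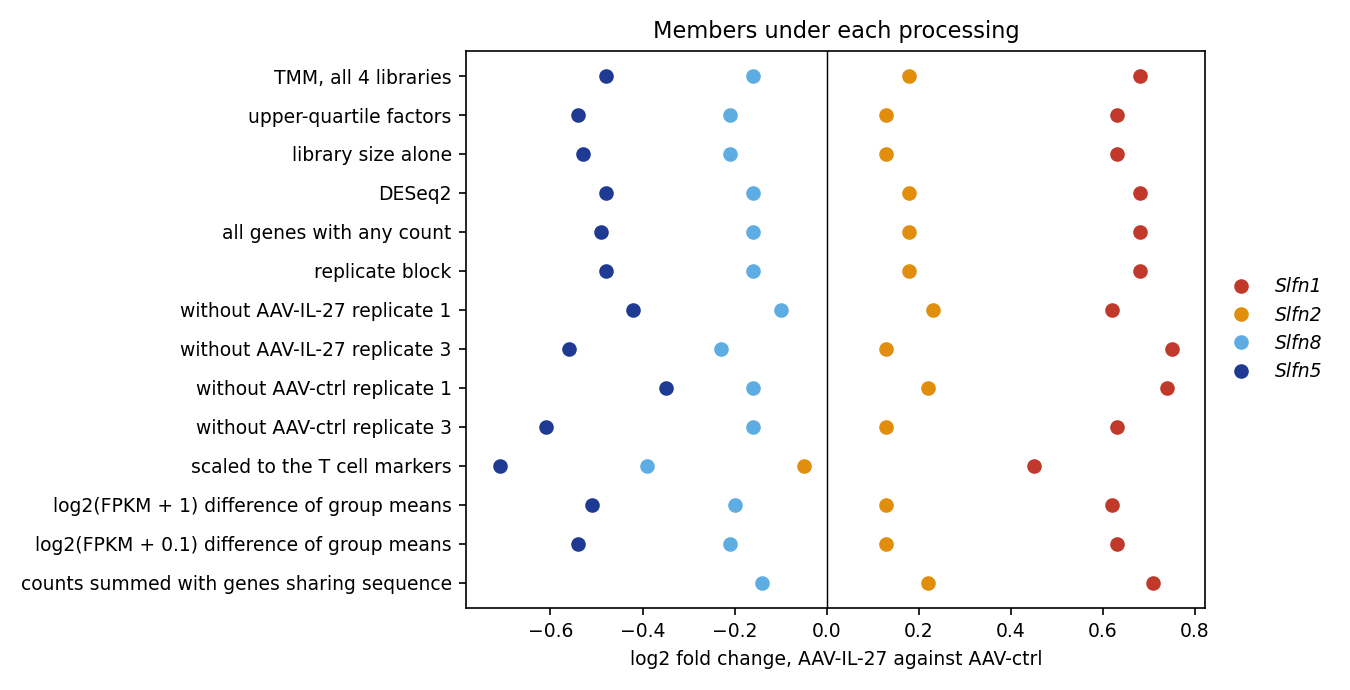
Log2 fold change of the 4 members (horizontal axis) under each way of processing (rows). Slfn1 lies between 0.45 and 0.75, Slfn5 between -0.71 and -0.35 and Slfn8 between -0.39 and -0.10, while Slfn2 crosses 0, from -0.05 when scaled to the T cell markers to 0.23.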

How the data were processed

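RNA of splenic T cells was sequenced from 4 mice. The values the authors deposited are expected counts for each gene in each library and a second set taken here as FPKM. No header states this unit, which was inferred because the value per count moves between libraries with the summed counts. Per the submitters' processing notes, the tools were RSEM 1.2.12, HISAT2 2.0.4, DESeq2 1.4.5 and Bowtie2 2.2.5 on GRCm38.p6, with no role given. Expected counts were rounded, filtered with filterByExpr and scaled with TMM. Groups were compared with edgeR 4.0.16 in R 4.3.3 (quasi-likelihood test, two-sided, Benjamini-Hochberg over all genes, threshold 0.05), with the SE as the fold change over the square root of F. The fit was tested on simulated data. Replicates differed beyond sampling noise (chi-square over degrees of freedom, 6.47 for the AAV-IL-27 pair, 2.49 for AAV-ctrl). Genes were matched to RefSeq by gene number (16921 of 17039). Promoter windows are from RefSeq and transcripts from GENCODE, both on GRCm38, and promoters were aligned with Biopython 1.88. The members and gene lists were chosen with earlier results of these data known. Named genes are the Schlafen genes, their neighbours, up to 4 genes with the smallest p per list and direction, and the 3 genes with the closest profiles; not all are printed. The promoter alignment and shared transcript stretches were added after seeing the data. Alternatives were other scalings (upper quartile, library size, the T cell markers), DESeq2 1.42.0, no filter, a replicate block, FPKM on a log2 scale with pseudocounts of 1 and 0.1, and each library left out. Some genes under the naming rule are not reported here.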

Additional observations from a re-analysis of the deposited data

How the results depend on the processing

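Of 181 recomputed values for the 4 members and the counts of genes, 158 stayed within the spread between replicates or within 1.5 times the count, and 1 turned its sign. Single genes outside the 4 are not among them. Some of the counts lay at a limit and could move in 1 direction only, such as the 17 of 17 GTPases and 0 of 28 quiescence genes that rose. The value that turned its sign was that of Slfn2, at -0.05 when scaled to the T cell markers. Under that scaling Slfn1 was 0.45, Slfn5 -0.71 and Slfn8 -0.39, with all genes shifted nearly alike. Leaving out 1 library gave 0.62 to 0.75 for Slfn1, 0.13 to 0.23 for Slfn2, -0.61 to -0.35 for Slfn5 and -0.23 to -0.10 for Slfn8. The number of changed genes was 5023, of which 2745 rose and 2278 fell, 3243 with DESeq2 and 2635 to 4886 with a library left out, lowest without AAV-ctrl replicate 1 (2635) and replicate 3 (2743). With upper-quartile factors 2362 rose and 2979 fell, with library size alone 2363 and 2975, and scaled to the T cell markers 1380 and 5414. Of the other Schlafen genes 1 rose with DESeq2 and 1 rose and 2 fell scaled to the T cell markers, while 1 to 2 rose and 0 to 1 fell with a library left out; Slfn9 was -0.02 to 0.01 with a library left out and turned its sign to 0.01 without AAV-ctrl replicate 1. Of the interferon signalling genes 7 rose and 6 fell scaled to the T cell markers, and 1 to 3 fell with a library left out, with 1 without AAV-ctrl replicate 3. Of the neighbours 0 passed with DESeq2, 6 scaled to the T cell markers and 1 to 2 with a library left out. Where a library was left out, the lone library of its group was assumed to vary like the other group. Replicate numbers gave no sign of pairing (r = 0.01 across 12887 genes between the differences of replicates 1 and 3 in the 2 groups), and with the replicate block 2739 genes rose and 2232 fell, with Slfn1 at 0.68, Slfn2 at 0.18, Slfn5 at -0.48 and Slfn8 at -0.16. The causes were not tested. A planned comparison of protein sequences was not run.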
